A study of Mus musculus with 8 samples.

Results

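Most of the genes described here encode receptors, scaffold, enzymes and channels of the apical surface of the proximal tubule, the first tubule segment to meet filtered plasma. The genes were chosen by name as a set of 10: Lrp2, Cubn, Amn, Dab2, Aqp1, Kap, Ggt1, Miox, Anpep and Pdzk1. The platform annotation named a probe for 9 of them, with 18 probes, and 15 of these probes, at least 1 for each of the 9 genes, passed the detection filter. Ggt1 had no probe under that symbol and is not analysed here. In all, 10734 named genes and 18601 of 45281 probes were tested. The tissue was whole kidney from C57/bk mice, all adult and male, taken on day 7 of unilateral ureteral obstruction (UUO), in which the ureter of a single kidney is tied and that kidney scars. Of the animals 4 had received anti-miR-214, an antisense oligonucleotide that binds miR-214, and 4 had received an oligonucleotide called control antimiR, with 1 Illumina bead array per animal. Both groups had obstructed kidneys, and no unobstructed kidney was analysed here. The labels give neither the dose nor the dosing days of the oligonucleotides, nor the age of the animals beyond adult.

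Filtered proteins, vitamins and hormones are taken back into proximal tubule cells by 2 large apical receptors, megalin (Lrp2) and cubilin (Cubn), which hand their cargo to clathrin-coated pits. Cubilin has no membrane span of its own and needs amnionless (Amn) to reach the surface, and the adaptor Dab2 links megalin's cytoplasmic tail to the coat. The surface carrying these receptors is a brush border of microvilli, packed with peptidases and held together by scaffold proteins, and proximal tubule cells that are injured or lose their identity are known to lose it. The oligonucleotide under test is directed at miR-214, whose mature strands are shown because they are what the treatment was designed to bind. The sequences are those of RefSeq for GRCm38.p6, read on the plus strand at chr1:162223397-162223418 and chr1:162223438-162223459, and the capitals mark the seed, bases 2 to 8, with which a microRNA pairs to its targets. The labels do not say which strand the oligonucleotide was made against.
mmu-miR-214-5p: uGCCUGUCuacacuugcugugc
mmu-miR-214-3p: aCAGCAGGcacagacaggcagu

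Of the 9 measured genes, amnionless rose after anti-miR-214 and the other 8 did not pass the threshold, an adjusted p under 0.05 by limma over all tested probes. That is 1 gene higher and 0 lower by the brightest probe of each gene, against 12.3% of all named genes higher and 9.93% lower. A share of 1 in 9, 11.1%, lies near that background. At an unadjusted p under 0.05 the count was also 1, against 37.6% of named genes. The log2 change lay above 0 for 7 genes and below 0 for 2, Lrp2 and Dab2. The split was the same with the arrays scaled to a common median of all probes. With a common median of the tested probes, a setting added after the data were seen, all 9 lay above 0. That setting also moved the median of all tested probes, from 0.05 to 0.13. Without such scaling the median over the 9 genes was 0.25, beside 0.08 for all named genes. Over the 15 tested probes 1 was called, against 25.6% of all tested probes. No tested member probe had groups free of overlap (0 of 15), while 28.9% of all tested probes did, and 27.3% of named genes by their brightest probe. Values are log2 intensities after background correction and quantile normalization, each change is on that scale, and intervals are 95% intervals from the same fit. The RNA came from whole kidney, so fewer cells of a type and less RNA per cell cannot be told apart.

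**Figure D1:**
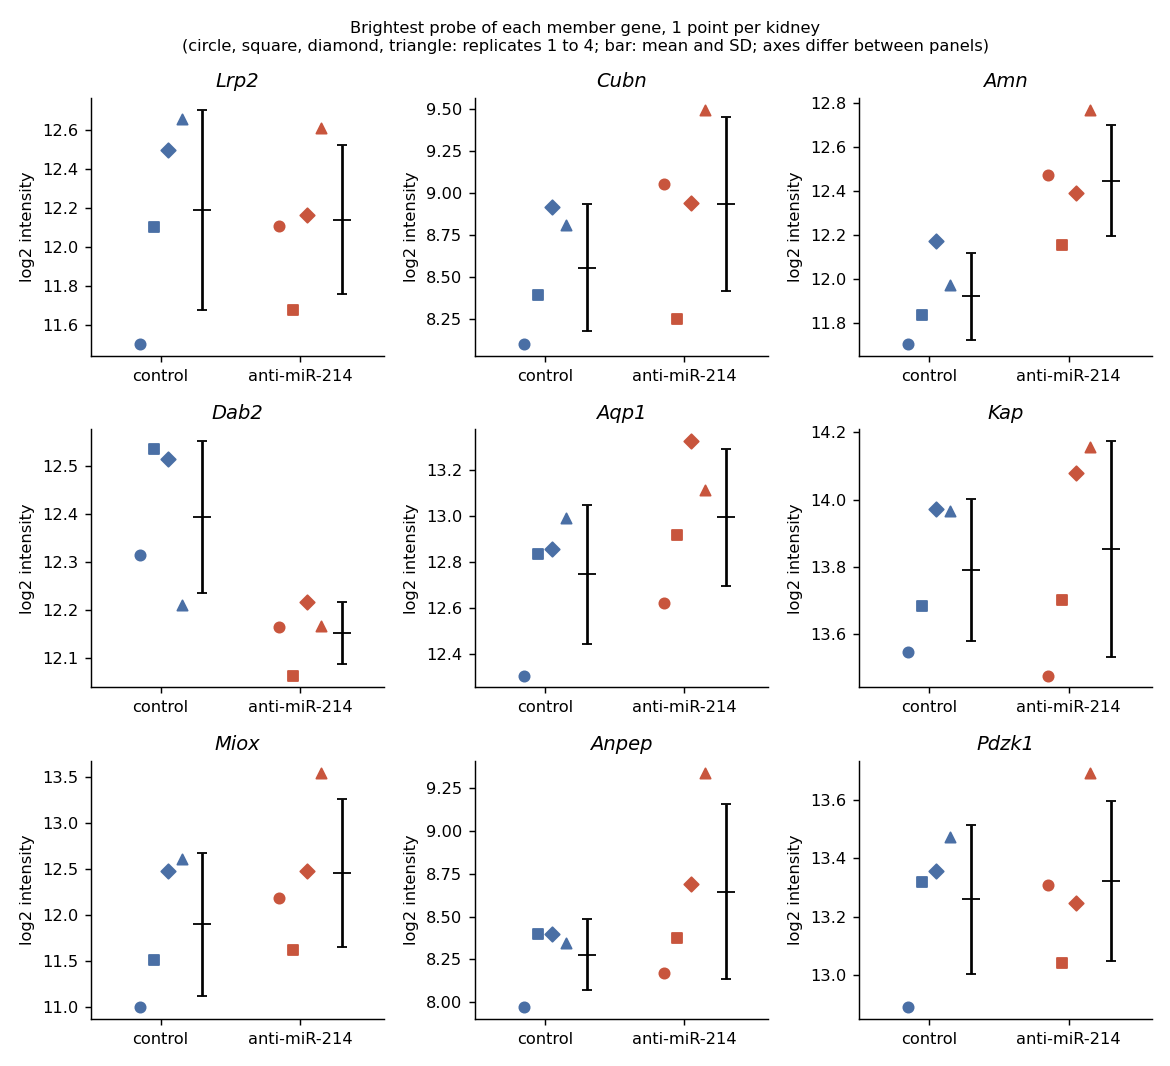
Log2 intensity (vertical axis) of the brightest probe of each of the 9 measured genes in control antimiR (blue) and anti-miR-214 (red) kidneys, 1 point per kidney with the mean and SD beside each group. The 2 groups overlap in every panel, narrowly for Amn, and control replicate 1 is the lowest control in 8 of the 9 panels.

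Among the receptors, megalin (Lrp2) binds many ligands, among them albumin, vitamin-binding proteins and aminoglycosides. Its log2 intensity was 11.50, 12.10, 12.50 and 12.66 in control replicates 1 to 4, and 12.11, 11.68, 12.17 and 12.61 in anti-miR-214 replicates 1 to 4. The anti-miR-214 kidneys all lay inside the control range. The log2 change was -0.05 (SE 0.26, 95% interval -0.62 to 0.52, limma adjusted p = 0.902), so the interval runs from 0.653-fold to 1.43-fold. The other 2 Lrp2 probes were not above background on any of the 8 arrays and were not tested.

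Cubilin (Cubn) takes up intrinsic factor with vitamin B12 in the intestine and albumin and transferrin in the kidney. It measured 8.10, 8.39, 8.92 and 8.81 in control kidneys and 9.05, 8.25, 8.94 and 9.50 in anti-miR-214 kidneys. Replicates 1, 3 and 4 of the latter lay above every control and anti-miR-214 replicate 2 lay among the lowest. Between the group means the log2 change was 0.38 (SE 0.26, 95% interval -0.19 to 0.95, limma adjusted p = 0.293).

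Amnionless (Amn) is the membrane-spanning partner that carries cubilin to the apical surface. It measured 11.70, 11.84, 12.17 and 11.97 in control kidneys and 12.47, 12.16, 12.39 and 12.77 in anti-miR-214 kidneys. The groups touched at a single point, where control replicate 3 lay just above anti-miR-214 replicate 2. The control mean was 11.92 ± 0.20 and the anti-miR-214 mean 12.45 ± 0.25 (SD, n = 4), a rise of 1.44-fold (95% interval 1.14 to 1.82, log2 change 0.53, SE 0.15, limma adjusted p = 0.0302). The difference was 0.44 among the 6 arrays of slide 1 and 0.80 between the 2 arrays of slide 2, which hold 1 kidney of each group. The labels do not name the slides, which were inferred from the names of the intensity columns. The call did not hold on slide 1 alone (adjusted p = 0.0986), nor without any 1 of control replicates 1, 2 or 4 or anti-miR-214 replicates 1, 3 or 4 (adjusted p = 0.053 to 0.0809). Whether Amn changed differently from its partner Cubn was not tested.

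Dab2 is the adaptor that binds megalin's tail and the clathrin coat, and is also made by macrophages and fibroblasts. On its brightest probe it measured 12.31, 12.54, 12.52 and 12.21 in control kidneys and 12.17, 12.06, 12.22 and 12.17 in anti-miR-214 kidneys. Control replicate 4 fell within the anti-miR-214 range and the other 3 controls lay above it. The log2 change was -0.24 (SE 0.12, 95% interval -0.50 to 0.02, limma adjusted p = 0.147), and -0.26 with the arrays scaled to a common median of all probes. Scaling to a common median of the tested probes turned it to 0.03, the only 1 of 23 alternatives where it lay above 0. Its other tested probes had log2 changes of -0.19 and 0.07, neither past the threshold, and the fourth was not above background on any array. The spread of Dab2 was the smallest of the 9 genes, with a residual SD of 0.12.

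**Figure D2:**
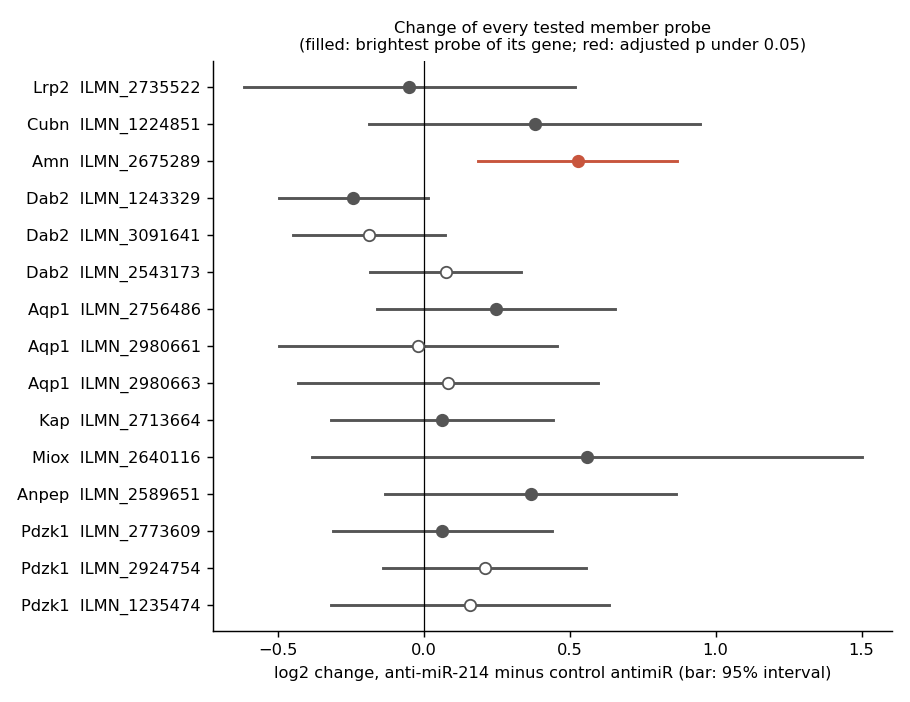
Log2 change (horizontal axis, anti-miR-214 minus control antimiR) of each of the 15 tested probes, with bars for the 95% interval and filled points for the brightest probe of each gene. Only the interval of Amn, in red, is past the adjusted threshold, and Miox has the widest interval, with the highest upper end.

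Aminopeptidase N (Anpep) trims amino acids from the ends of filtered peptides. It measured 7.97, 8.40, 8.40 and 8.35 in control kidneys and 8.17, 8.38, 8.69 and 9.34 in anti-miR-214 kidneys. Anti-miR-214 replicates 3 and 4 lay above every control, and replicates 1 and 2 lay within the control range. This made a log2 change of 0.37 (SE 0.23, 95% interval -0.13 to 0.86, limma adjusted p = 0.249).

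Pdzk1 is a scaffold with PDZ domains that holds transporters such as the phosphate carrier at the brush border. Its brightest probe measured 12.89, 13.32, 13.36 and 13.47 in control kidneys and 13.31, 13.04, 13.25 and 13.70 in anti-miR-214 kidneys. Anti-miR-214 replicate 4 was the highest of all 8 and control replicate 1 the lowest. The log2 change was 0.06 (SE 0.17, 95% interval -0.31 to 0.44, limma adjusted p = 0.805). The other 2 probes, at 0.21 and 0.16, did not pass. The first did with the arrays scaled to a common median of the tested probes, a setting added after the data were seen (0.55, limma adjusted p = 0.0444).

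Aqp1 is the water channel of the proximal tubule and descending thin limb, and endothelium of the vasa recta makes it too. On its brightest probe it measured 12.31, 12.83, 12.86 and 12.99 in control kidneys and 12.62, 12.92, 13.32 and 13.11 in anti-miR-214 kidneys. Anti-miR-214 replicates 3 and 4 lay above every control. The difference between groups, as a log2 change, was 0.25 (SE 0.19, 95% interval -0.16 to 0.65, limma adjusted p = 0.342), and those of its other probes were -0.02 and 0.08.

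Kap, the kidney androgen-regulated protein of rodents, is a secreted product of proximal tubule cells whose messenger RNA responds to androgens. It measured 13.55, 13.68, 13.97 and 13.97 in control kidneys and 13.48, 13.70, 14.08 and 14.16 in anti-miR-214 kidneys. The lowest and the highest kidney both belonged to the anti-miR-214 group. Group means differed by a log2 change of 0.06 (SE 0.17, 95% interval -0.32 to 0.44, limma adjusted p = 0.813).

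Miox, the oxygenase that opens the ring of myo-inositol in proximal tubule cells, had the widest spread. It measured 11, 11.51, 12.48 and 12.61 in control kidneys and 12.19, 11.62, 12.48 and 13.55 in anti-miR-214 kidneys. The control kidneys spanned 1.61 and the anti-miR-214 kidneys 1.92. The log2 change was 0.56 (SE 0.43, limma adjusted p = 0.35), with a 95% interval from 0.767-fold to 2.83-fold. That is close in size to the change of Amn, but with a residual SD of 0.79 against 0.23.

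Kidneys of the same group differed widely in these genes. The median residual SD, the spread within groups, was 0.30, beside 0.20 for all named genes, and 8 of the 9 lay above the latter. The genes also deviated together. Control replicate 1 was the lowest control for 8 of the 9 genes, against 22.8% of all named genes, and anti-miR-214 replicate 4 was the highest of its group for 7, against 27.9%. Relative to each gene's mean over the 8 kidneys, the median member lay at -0.49 in control replicate 1 and at -0.21 in anti-miR-214 replicate 2. It lay at 0.45 in anti-miR-214 replicate 4, at 0.21 in anti-miR-214 replicate 3, and between -0.06 and 0.15 in the other 4 kidneys. Dab2 was the exception, with its highest values in control replicates 2 and 3.

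**Figure D3:**
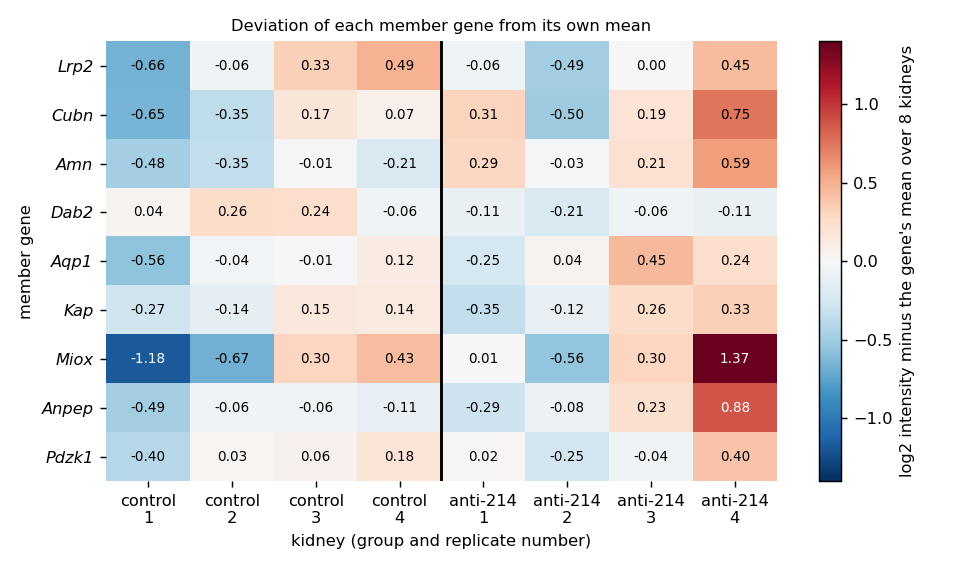
Deviation of each gene (rows) in each kidney (columns) from the gene's own mean over 8 kidneys, in log2 units, with controls to the left of the line. Control replicate 1 is below the mean for every gene but Dab2, and anti-miR-214 replicate 4 is above it for every gene but Dab2.

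The kidneys at the ends of this pattern bore on the group difference. Without control replicate 1 the median log2 change of the 9 genes was 0.10, with 5 genes above 0 and 4 below, and without anti-miR-214 replicate 4 it was 0.13. With both left out (chosen after seeing the data) it was -0.11, and 4 genes lay above 0 and 5 below, while Amn had a log2 change of 0.35 (limma adjusted p = 0.149). Leaving out a gene's lowest control or its highest anti-miR-214 kidney can only lower its change. For most of the 9 genes the direction of these shifts was therefore fixed in advance. Both slides held both groups, with replicate 4 of each on slide 2, and with the slide as a block 1 gene was called, as without it.

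Markers of the proximal tubule, which the tissue label requires, were present, and 10 of a list of 12 were tested. Summed over their brightest probes on the linear scale, they ranged from 18634 to 30663 in control and from 19736 to 44921 in anti-miR-214 kidneys. The lowest and the highest of these sums belonged to control replicate 1 and anti-miR-214 replicate 4, the same kidneys as above. Of the 10 markers 5 had a log2 change above 0, with a median of 0.12 over all 10. The transcription factor gene Hnf4a rose (log2 change 0.57, limma adjusted p = 0.0465) and 9 did not pass. The call of Hnf4a was lost in 7 of the 8 fits that left out 1 array, the exception being anti-miR-214 replicate 2 (limma adjusted p = 0.025 to 0.111). Markers of other cells moved between the groups. Of 5 fibroblast markers 4 fell, with sums of 9164 to 14183 in control and 5529 to 9739 in anti-miR-214 kidneys. Of 4 tested macrophage markers 2 fell, with sums of 8456 to 9664 against 2262 to 5237. Of 4 tested endothelial markers 3 fell, with sums of 5488 to 8204 against 2262 to 5487. Of 4 red blood cell markers 2 fell, with sums of 15534 to 19395 against 3367 to 17548. Of 3 tested podocyte markers Nphs1 rose by 0.50 (limma adjusted p = 0.00969), with sums of 3564 to 4916 against 4559 to 4821. Of 5 tested collecting duct markers 4 lay above 0 and Aqp3 lay at -0.43. Only the sodium channel gene Scnn1a passed, with a rise of 0.88 (limma adjusted p = 0.0337), and the sums were 2458 to 3357 against 2974 to 5595. No tested marker of the thick limb and distal tubule (4), the thin limb (3) or adipose tissue (2) passed by limma. The injured tubule markers summed to 21389 in control replicate 1 and 9091 in anti-miR-214 replicate 4, the highest and the lowest of the 8 kidneys. Of the 4 tested 0 passed. In control replicate 1 only Lcn2 was at its highest (13.52), while Havcr1 peaked in control replicate 2 (13.20). Krt20 had its lowest control value (8.64) in control replicate 1. In anti-miR-214 replicate 4 Havcr1, Lcn2 and Krt20 were at their lowest of the 8 kidneys and Sox9 was not. Of the adrenal markers, all 4 were undetected on every array. Of 5 skeletal muscle markers, Myh4 and Ckm were undetected on every array and Acta1 was detected on 1, while Mylpf and Tnni2 were tested (log2 change 0.36 and 0.21) and did not pass, with sums of 109 to 137 in control and 142 to 151 in anti-miR-214 kidneys. The part of these shifts in the member values was not tested.

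The number of detected probes was also lower after anti-miR-214, 16852 to 17745 against 18913 to 19513 (two-sided p = 0.0286 by an exact permutation test of 4 against 4 arrays, which can give none smaller). A further array measure, the probe gap, is the mean difference between a gene's dimmer probes and its brightest. It had a mean of -1.85 ± 0.04 after anti-miR-214 and -1.73 ± 0.03 in controls (SD of 4 arrays each, p = 0.0286 by the same exact test). Its ranges did not overlap, -1.88 to -1.79 against -1.77 to -1.70, so a fit can hardly tell it apart from the group. With the probe gap as a covariate, Amn had a log2 change of 0.77 and was not called (limma adjusted p = 0.538), and 3 of all 18601 probes were. Given that overlap of measure and group, the loss of calls does not show what the probe gap accounts for.

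Other genes of the same pathways were read from 8 lists of 69 genes, of which 58 had a tested probe. By their brightest probes 4 rose, 4 fell and 50 did not pass, 13.8% in either direction beside 22.3% of all named genes, and their median log2 change was 0.15. Without Slc5a3, which was undetected in every control, 3 of 57 rose and 4 fell, or 12.3%. Of 32 dimmer tested probes of these genes 2 rose and 5 fell, beside 11.8% of all tested probes higher and 13.8% lower. The falls included a Cltc probe that no anti-miR-214 array detected. With the probe gap as a covariate none of the 8 genes was called by limma. The 8 calls by the brightest probe were spread over 4 lists, and no list had more than 3.

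**Figure D4:**
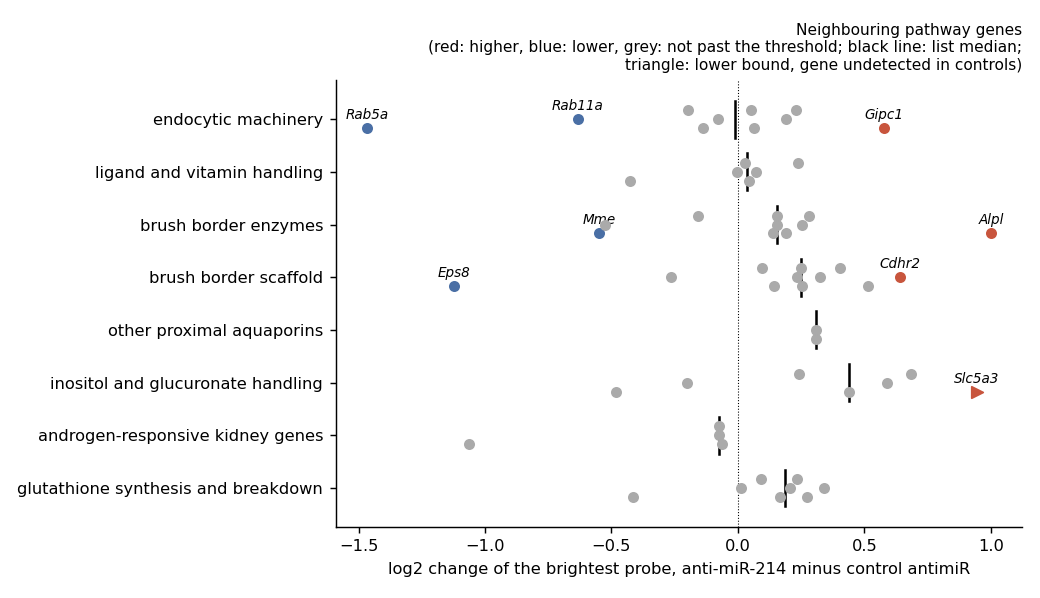
Log2 change (horizontal axis) of the brightest probe of each tested gene in 8 lists of neighbouring pathway genes (vertical axis), with the list median as a black line. Slc5a3 is drawn as a triangle at its lower bound, since no control array detected it. Rab5a lies lowest at -1.47, and 50 of the 58 points, in grey, did not pass.

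In the endocytic machinery, which carries receptors from coated pits through early and recycling endosomes, 1 of 10 tested genes rose, 2 fell and 7 did not pass (median -0.01). Rab5a, the GTPase of early endosomes, fell from 9.80 ± 0.15 to 8.33 ± 0.24 on its brightest probe (SD, n = 4, log2 change -1.47, limma adjusted p = 0.000386). Its other probes did not share 1 direction, with a fall of -1.37 (limma adjusted p = 0.000583) and a rise of 0.45 (limma adjusted p = 0.0324). Rab11a, the GTPase of recycling endosomes, fell by 0.63 (limma adjusted p = 0.0112). Gipc1, an adaptor that binds megalin's tail, rose by 0.58 on its brightest probe (limma adjusted p = 0.00511), while its other probes lay at -0.43, -0.11 and 0.35 and did not pass. The call of Gipc1 was lost with arrays scaled to a common median of all probes (0.34, limma adjusted p = 0.084). A dimmer probe of Cltc, the clathrin heavy chain gene, was detected on all 4 control arrays and on no anti-miR-214 array, at least 1.70-fold lower (limma adjusted p = 0.000386). That probe passed the detection filter only through the controls, where it was high, so it had to differ. The brightest Cltc probe, at -0.14, and another, at 0.11, did not pass. Lrpap1, the chaperone of megalin, was at 0.23 and did not pass. Among 6 genes of ligand and vitamin handling none passed by limma (median 0.04). The vitamin D receptor gene Vdr, at 0.24, and the folate receptor gene Folr1, at -0.43, had the smallest p by their brightest probes. The other Folr1 probe lay at 0.01.

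Among 10 other brush border enzymes 1 rose, 1 fell and 8 did not pass (median 0.15). Alkaline phosphatase (Alpl) rose from 9.51 ± 0.26 to 10.51 ± 0.63 (SD, n = 4, SE of the log2 change 0.27, limma adjusted p = 0.0222), with groups that overlapped. That call was lost without control replicate 1 or 3 or anti-miR-214 replicate 4 (limma adjusted p up to 0.0605), and on slide 1 only (0.0761). Neprilysin (Mme), a peptidase that cleaves small peptide hormones, fell by 0.55 on its brightest probe (limma adjusted p = 0.0153), with its other tested probe at -0.22 and not past the threshold. On slide 1 only Mme was at -0.42 and not called (limma adjusted p = 0.0785). Among 11 scaffold genes 1 rose, 1 fell and 9 did not pass (median 0.25). Cdhr2, a cadherin of the links between microvilli, rose by 0.64 (limma adjusted p = 0.0291), with other probes at 0.53 and 0.04 that did not pass. Its call was lost without any 1 of control replicates 1, 2 and 3 or anti-miR-214 replicates 3 and 4 (limma adjusted p up to 0.0777), on slide 1 only (0.0557), and with arrays scaled to a common median of all probes (0.42, limma adjusted p = 0.116). Eps8, which caps and bundles actin in microvilli, fell by 1.12 (limma adjusted p = 0.00247). Of the 10 enzyme and 11 scaffold genes the groups did not overlap for Eps8, Cdhr2 and Mme only, beside 27.3% of all named genes by their brightest probe.

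The last lists follow single members. Of the aquaporins beside Aqp1, Aqp7 and Aqp11 both stood at 0.31 and did not pass. A dimmer probe of Aqp7 rose by 1.08 (limma adjusted p = 0.0024), while another, at 0.41, did not pass. In the handling of inositol and glucuronate, the pathway of Miox, 1 of 7 genes rose and 6 did not pass (median 0.44). It was the inositol carrier gene Slc5a3, undetected on every control array and detected on all 4 anti-miR-214 arrays, at least 1.92-fold higher (limma adjusted p = 0.00992, and 0.054 on slide 1 only). Its probe passed the detection filter only through the group where it was high, so it had to differ. A dimmer probe of Slc2a13, a carrier that moves inositol with protons, fell by 0.70 (limma adjusted p = 0.00536), while its brightest, at -0.48, did not pass. Of 4 androgen-responsive genes, listed for Kap, none passed by limma (median -0.07). Acsm3 was at -1.06 on its brightest probe and was called in 3 of the 23 alternatives. Among these were the fit without control replicate 1 (-1.37, limma adjusted p = 0.0336) and scaling to a common median of all probes (-1.15, limma adjusted p = 0.0384). Control replicate 1 was its lowest control, so leaving it out could only deepen the fall. A dimmer Acsm3 probe, detected on 4 control arrays and 1 anti-miR-214 array, fell by 1.45 (limma adjusted p = 0.0107), while Odc1 was at -0.07. In glutathione synthesis and breakdown, the pathway of Ggt1, 0 of 8 genes passed by limma (median 0.19), with Ggct at -0.42 and Oplah at 0.24 the nearest. Ggct was called with arrays scaled to a common median of all probes (-0.69, limma adjusted p = 0.0384). Its dimmer probes did not share that direction, at 0.39, 0.34 and 0.002 in the main setting, and did not pass. Of the glutathione synthetase gene Gss a dimmer probe fell by 1.10 (limma adjusted p = 0.0116). The brightest Gss probe, at 0.20, and the other dimmer ones, at 0.39 and 0.23, did not pass.

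By root mean square difference of centred log2 profiles over the 8 kidneys, the genes nearest to Lrp2 among 10733 were Myorg (0.11), Aldh8a1 (0.13) and Tmem174 (0.14). Those nearest to Kap were Mtrex (0.08), Tex2 (0.08) and Fads6 (0.09).

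For the set of 10 genes, the promoter windows of RefSeq for GRCm38.p6, 300 bases around each annotated start, were searched on both strands for the letters of HNF1 and HNF4, factors that maintain the proximal tubule state. All 10 genes had at least 1 window, 15 in all. The HNF1 half-site GTTAAT was found in 2 of the 15 windows, of Dab2 and Miox, and in 7.1% of all 32817 windows. The HNF4 core CAAAGTCC was found in 2 of the 15, of Ggt1 and Pdzk1, and in 1.42% of all windows. The windows of Amn, the gene that was called, and of Miox, the gene of widest spread, are shown, with matches in capitals. Of Pdzk1 the window that held the HNF4 core is shown. The windows shown lie at chr12:111270846-111271145 (plus strand), chr15:89334223-89334522 (plus strand) and chr3:96829815-96830114 (plus strand). The Amn window held neither run of letters, nor did the other Pdzk1 window, at chr3:96831921-96832220 (plus strand), which is not shown.
Amn: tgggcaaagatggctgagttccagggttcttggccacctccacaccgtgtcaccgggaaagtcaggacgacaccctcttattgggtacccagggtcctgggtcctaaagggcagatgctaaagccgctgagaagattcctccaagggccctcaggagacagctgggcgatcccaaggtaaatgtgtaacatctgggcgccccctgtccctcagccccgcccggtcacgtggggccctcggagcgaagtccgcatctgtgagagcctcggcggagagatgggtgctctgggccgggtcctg
Miox: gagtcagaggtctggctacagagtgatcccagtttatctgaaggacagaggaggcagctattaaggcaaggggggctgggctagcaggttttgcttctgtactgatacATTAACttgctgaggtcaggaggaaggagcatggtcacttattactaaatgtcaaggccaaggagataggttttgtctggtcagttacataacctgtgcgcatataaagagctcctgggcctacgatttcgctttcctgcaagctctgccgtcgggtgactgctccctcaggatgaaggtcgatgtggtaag
Pdzk1: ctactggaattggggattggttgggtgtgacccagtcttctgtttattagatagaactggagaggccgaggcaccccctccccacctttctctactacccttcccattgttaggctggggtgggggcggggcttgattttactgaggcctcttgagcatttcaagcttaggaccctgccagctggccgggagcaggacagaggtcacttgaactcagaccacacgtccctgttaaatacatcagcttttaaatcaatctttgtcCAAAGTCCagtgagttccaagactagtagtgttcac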

How the data were processed

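Total RNA of whole kidney was amplified to biotin-labelled cRNA with an Illumina kit, per the labels' protocols. Groups came from the sample titles. The deposited table held linear bead intensities, called non-normalized per the file headers, with a detection p-value beside each. The deposited processed intensities of the second table, made by a method not given in the sources used here, served as an alternative.

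Intensities were background-corrected and quantile-normalized by neqc of limma 3.58.1 in R 4.3.3 (offset 16, log2), which presses changes of dim probes toward 0. Probes with a detection p under 0.05 on at least 4 of 8 arrays were tested with lmFit and eBayes, group as the only term, and Benjamini-Hochberg adjustment over all of them. Arrays have no read depth, and their number limits the precision. A gene was represented by its brightest probe. An at-least fold compares group means after raising each array of the undetected group to the lowest signal detected on it. The fit was tested on simulated data. Gene names came from the supplied platform annotation, updated through gene numbers, which changed 0 symbols. The array's build was not given, so genes carry no coordinates. Named genes were all members, the genes of each list past the threshold or else the 2 of smallest p, and the 3 of most like pattern to Lrp2 and to Kap. Cell type marker genes, Lrpap1, Cltc, Slc2a13 and Gss were named after their values were seen. The members and lists were chosen with earlier results of these data known. Same-numbered replicates deviated together with correlations of 0.015 to 0.204, so the numbers were not taken as pairs. No column belonged to another series (0 columns), and no 2 arrays were identical (highest correlation 0.991).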

Additional observations from a re-analysis of the deposited data

Results flagged for a closer look

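Within groups of 4 kidneys, the lowest or highest value of each tested member probe was compared with the rest by Dixon's test. Of the 30 groups examined 2 were flagged, and chance flags about 1 in 20. Both were low values of control replicate 1. Anpep measured 7.97 there, with the other 3 controls between 8.35 and 8.40, and its gap was 0.883 of the group's range. A dimmer probe of Pdzk1 measured 12.74 there, with a gap of 0.871 of the range.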

How the results depend on the processing

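Of 23 alternatives, 2 of them added after the data were seen, 12 kept the single member call, Amn, and 11 gave 0 members called. The 0 came with arrays scaled to a common median of all probes, on slide 1 only, with the probe gap as a covariate, without anti-miR-214 replicates 3 and 4, without control replicate 1 and anti-miR-214 replicate 4 together, and in 6 of the 8 fits that left out 1 array (range 0 to 1). The log2 change of Amn lay between 0.35 and 0.78, above 0 in all 23, and its adjusted p between 0.0122 and 0.538. No member called by its brightest probe was added under any alternative, and the probe-level exception was the Pdzk1 probe given above. Over all probes 4761 were called (2195 higher, 2566 lower), 2556 on slide 1 only, 3 with the probe gap as a covariate, 1400 without anti-miR-214 replicates 3 and 4, 2589 without control replicate 1 and anti-miR-214 replicate 4, and 2550 to 4806 with 1 array left out. Scaling moved the split of calls: 551 higher and 4509 lower with a common median of all probes, where the median of all tested probes was -0.15, and 3455 higher and 2297 lower with a common median of the tested probes, where it was 0.13. The members' median stood above that of all tested probes by 0.19 in the main setting and by 0.29 under each scaling, but by 0.03 without control replicate 1, and it stood at -0.04 relative to it without anti-miR-214 replicates 3 and 4 and at -0.16 without control replicate 1 and anti-miR-214 replicate 4. As said above, leaving out control replicate 1 or anti-miR-214 replicate 4 lowers the change of most members by construction. With the replicate block, whose numbers did not pair the samples, 4598 probes and 1 member were called, and of the pairs only number 4 correlated best with its own number. Of the pathway lists 8 genes were called, against 5 on slide 1 only, 0 with the probe gap, 5 without anti-miR-214 replicates 3 and 4, and 15 with a common median of the tested probes. Slc5a3 was tested under 17 of the 23 alternatives, since in the others it missed the detection filter. The causes of these differences were not tested. Signal over background limited 3 of 18 member probes, which were not detected on any array.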
